A study of Homo sapiens with 12 samples.

Results

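The 50 genes described here are a list of genes that act in G2 phase and mitosis, the part of the cell cycle in which a cell with copied DNA prepares to divide and then separates its chromosomes. The members were taken by name, matched from symbol to Ensembl identifier, and 50 of 50 were found, among 33704 Ensembl genes that occur in at least 1 of the 3 deposited tables. The rule names genes by function and uses no measured value, but the list was drawn up with earlier results of these data known. For description they were placed in 9 groups by role: 5 cyclins and CDC25 phosphatases, 7 mitotic kinases, 5 spindle checkpoint genes, 9 kinesins, 6 centromere and kinetochore genes, 3 chromosomal passenger subunits, 7 spindle and cytokinesis genes, 5 anaphase and cohesion genes and 3 genes of chromosome structure and transcription.

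RNA was measured by stranded mRNA sequencing in Jurkat, a continuously growing line from a human T-cell leukaemia. In TAL1-KD, cells with a doxycycline-inducible short hairpin RNA (shRNA) against TAL1, a transcription factor of the basic helix-loop-helix family, received doxycycline at 5 µg/ml for 72 h, and TAL1-control was the same kind of cell without doxycycline. UTX-KD and UTX-control were the matching groups for an inducible shRNA against UTX, a histone H3 lysine 27 demethylase encoded by KDM6A, with the same dose and time. In J4-2uM, Jurkat cells received GSK-J4, an inhibitor of the H3 lysine 27 demethylases UTX and JMJD3, at 2 µM for 72 h, and J4-control received the vehicle DMSO. Each of the 6 groups had 2 libraries. The 4 shRNA groups grew with Tet-free serum, blasticidin and G418, and the J4 groups with ordinary serum and no selection. The controls of the shRNA lines received no doxycycline, so an effect of the drug itself and one of the hairpin cannot be told apart. No label says whether the 2 libraries of a group came from separate cultures or whether a line is 1 clone, so the p-values measure only the spread between these libraries.

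Passage through G2 and mitosis is driven by CDK1 with the A-type and B-type cyclins. The CDC25 phosphatases activate this complex, PLK1 and the Aurora kinases build the spindle and act at centromeres, and kinesins move chromosomes and microtubules. The spindle checkpoint holds the anaphase-promoting complex until every kinetochore is attached, and that complex then marks securin and cyclin B for destruction. Most of these genes are transcribed mainly in late S phase, G2 and mitosis, under the MuvB complex with B-MYB and FOXM1, through a promoter element called the cell cycle genes homology region (CHR), often with CCAAT boxes that bind NF-Y.

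Because these genes are known for shared promoter elements, upstream sequences are shown, in 6 of the role groups, for the member with the lowest median change among those in the RefSeq promoter table. These are CCNB1 (chr5:69167000-69167149, plus strand), PLK1 (chr16:23678739-23678888, plus strand), BUB1 (chr2:110678064-110678213, minus strand), KIF14 (chr1:200620752-200620901, minus strand), CENPE (chr4:103198344-103198493, minus strand) and ASPM (chr1:197146670-197146819, minus strand). NEK2 (chr1:211675622-211675771, minus strand) and MKI67 (chr10:128126424-128126573, minus strand), both higher with GSK-J4, were added after their values were seen. Each run holds the 150 bases directly before the annotated RefSeq start on GRCh38.p14, written 5′ to 3′ along the gene. Capitals mark the CHR letters TTTGAA or their reverse complement TTCAAA, and CCAAT or its reverse complement ATTGG. In MKI67 the last TTTGAA and an ATTGG overlap by 1 base.
CCNB1: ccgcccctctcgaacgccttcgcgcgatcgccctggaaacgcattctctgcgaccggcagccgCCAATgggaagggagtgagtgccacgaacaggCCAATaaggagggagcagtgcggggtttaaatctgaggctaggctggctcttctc
PLK1: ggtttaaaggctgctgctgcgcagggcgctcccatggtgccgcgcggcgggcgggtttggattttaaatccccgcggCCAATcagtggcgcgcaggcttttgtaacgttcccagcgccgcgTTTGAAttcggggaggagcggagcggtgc
BUB1: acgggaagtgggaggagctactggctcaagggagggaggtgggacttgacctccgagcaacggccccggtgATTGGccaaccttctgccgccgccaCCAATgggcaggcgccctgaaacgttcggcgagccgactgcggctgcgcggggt
KIF14: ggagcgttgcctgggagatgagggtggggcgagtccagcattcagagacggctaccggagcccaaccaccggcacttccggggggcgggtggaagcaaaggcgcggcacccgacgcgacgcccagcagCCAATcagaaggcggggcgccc
CENPE: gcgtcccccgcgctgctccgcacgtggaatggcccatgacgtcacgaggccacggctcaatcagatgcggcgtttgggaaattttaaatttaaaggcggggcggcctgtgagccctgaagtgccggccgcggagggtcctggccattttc
ASPM: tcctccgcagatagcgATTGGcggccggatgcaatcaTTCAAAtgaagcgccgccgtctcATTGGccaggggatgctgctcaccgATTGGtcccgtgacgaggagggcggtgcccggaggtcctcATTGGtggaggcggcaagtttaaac
NEK2: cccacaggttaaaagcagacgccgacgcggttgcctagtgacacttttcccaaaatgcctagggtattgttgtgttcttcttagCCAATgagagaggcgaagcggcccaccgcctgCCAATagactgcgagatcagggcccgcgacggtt
MKI67: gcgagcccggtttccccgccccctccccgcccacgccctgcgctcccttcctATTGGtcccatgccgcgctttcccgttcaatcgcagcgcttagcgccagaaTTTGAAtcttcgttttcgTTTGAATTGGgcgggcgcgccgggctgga

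The RefSeq promoter table (GRCh38.p14) held 41 of the 50 members. It did not list AURKA, BIRC5, BUB3, ESCO2, FOXM1, PBK, TPX2, TTK and UBE2C. In windows of 300 bases, from 250 before to 50 after the start and on both strands, TTTGAA occurred in 28 of the 41 members (68.3%) and in 15.4% of all 27305 windows of that length. CCAAT occurred in 31 of the 41 (75.6%) against 35.7% of all windows, and both letter strings in 23 members (56.1%) against 6.08%. PLK1, ASPM and MKI67 carry both in the stretch shown. BUB1, CCNB1, KIF14 and NEK2 carry only CCAAT there, and CENPE carries neither. Only TTTGAA and its reverse complement were searched, so a CHR written with other letters would be missed, and a stretch without a match may still hold one. Among the members that were lower with GSK-J4, 23 of 30 windows held TTTGAA. Among those higher with GSK-J4 it was 1 of 6, MKI67, and among those not called it was 4 of 5. FOXM1, TPX2 and UBE2C, also higher with GSK-J4, had no window. This split by calls is a description of few windows, and a link between the letters and the change was not tested. A match describes letters in a window and is not a measured binding site.

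The libraries held between 55524079 and 82534711 counted reads, and every member passed the filter on low counts in all 3 comparisons. The spread between libraries of a group, as the biological coefficient of variation in edgeR, was 8.40% in the TAL1 comparison, 2.30% in the UTX comparison and 2.69% in the GSK-J4 comparison. The targeted genes did not check the labels. TAL1 read 254 and 257 CPM (reads scaled to a common library size) in TAL1-control and 232 and 254 in the libraries labelled TAL1-KD, a log2 change of -0.07 (SE 0.09, adjusted p = 0.490 in edgeR). KDM6A read 30.9 and 31.3 CPM in UTX-control and 29.3 and 29.4 in the libraries labelled UTX-KD, a log2 change of -0.08 (SE 0.04, adjusted p = 0.103). The names TAL1-KD and UTX-KD are therefore used only as labels of libraries. All 12 T-cell markers were at 1 CPM or more in both libraries of every group. Of 12 markers of other cell types, 2 reached 1 CPM in each group and 3 in J4-2uM, led by CD79A. Their summed level lay between 42.8 and 80.5 CPM in the other 5 groups and between 103 and 111 CPM in J4-2uM, with EPCAM at 0 reads there, and its part in the results was not tested.

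Every one of the 50 members was lower in the libraries labelled UTX-KD, 45 were lower in those labelled TAL1-KD, and GSK-J4 divided the list, with 33 lower and 9 higher. All levels are CPM after TMM scaling, which corrects for library size and composition, and a member is called when its p-value from the edgeR quasi-likelihood test, adjusted over all genes tested, is under 0.05. In the TAL1 comparison 0 members were called higher, where 26.3% of all 16829 genes were, and 45 of 50 lower, where 27.9% of all genes were. The UTX comparison called 0 members higher against 25.2% of 16847 genes, and 50 lower against 25.3%. At an unadjusted p under 0.05, and also with DESeq2, the number higher was 0 in both comparisons. With GSK-J4, 9 members were called higher against 37.9% of 17907 genes, and 33 lower against 36.9%, so the share called higher was below and the share called lower above that of all genes.

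The median log2 fold change of the 50 members was -0.91 in the TAL1 comparison, -0.53 in the UTX comparison and -0.43 with GSK-J4, where the medians of all genes were -0.02, 0.01 and 0.01. Added over the list, the members held 9561 and 9994 CPM in TAL1-control and 5227 and 5786 in TAL1-KD. The sum went from 9654 and 9510 CPM in UTX-control to 6520 and 6487 in UTX-KD, and from 10150 and 10305 in J4-control to 7950 and 8169 in J4-2uM. In none of these sums did treated and control libraries overlap. In RNA from whole cultures, fewer cells in G2 and mitosis and less of these mRNAs per cell cannot be told apart.

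The spread among members differed between comparisons. In the UTX comparison the middle of the list, from the lower to the upper quartile, ran from -0.68 to -0.44, and the whole list from -1.14 (CCNB1) to -0.26 (CDC25B). In the TAL1 comparison the quartiles were -1.32 and -0.67 and the ends -2.65 (CENPE) and -0.04 (PTTG1). GSK-J4 gave quartiles of -0.90 and -0.02 and ends of -2.27 (CCNB1) and 0.57 (NEK2). Log2 changes of -1 or lower, at least a halving, numbered 18 in the TAL1 comparison, 1 in the UTX comparison and 10 with GSK-J4. The share of all genes at -1 or lower was not computed. The comparisons also differed in width over all genes, with an SD of the log2 fold change of 0.76, 0.42 and 0.92 in the same order. The share of all genes with each joint pattern of calls was not computed, so the pattern counts below only describe the list. By pattern of calls, 31 members were lower in all 3 comparisons. AURKB, FOXM1, MKI67, NEK2, SGO1 and TPX2 were lower in both shRNA comparisons and higher with GSK-J4. CDC25B, KIF2C and UBE2C were lower in the UTX comparison, higher with GSK-J4 and not called in the TAL1 comparison. Another 8 members (BIRC5, CDC25C, KIF23, KIF4A, NDC80, PBK, PRC1 and TTK) were lower in both shRNA comparisons and not called with GSK-J4, and CDC20 and PTTG1 were lower in the UTX and GSK-J4 comparisons and not called in the TAL1 comparison.

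**Figure D1:**
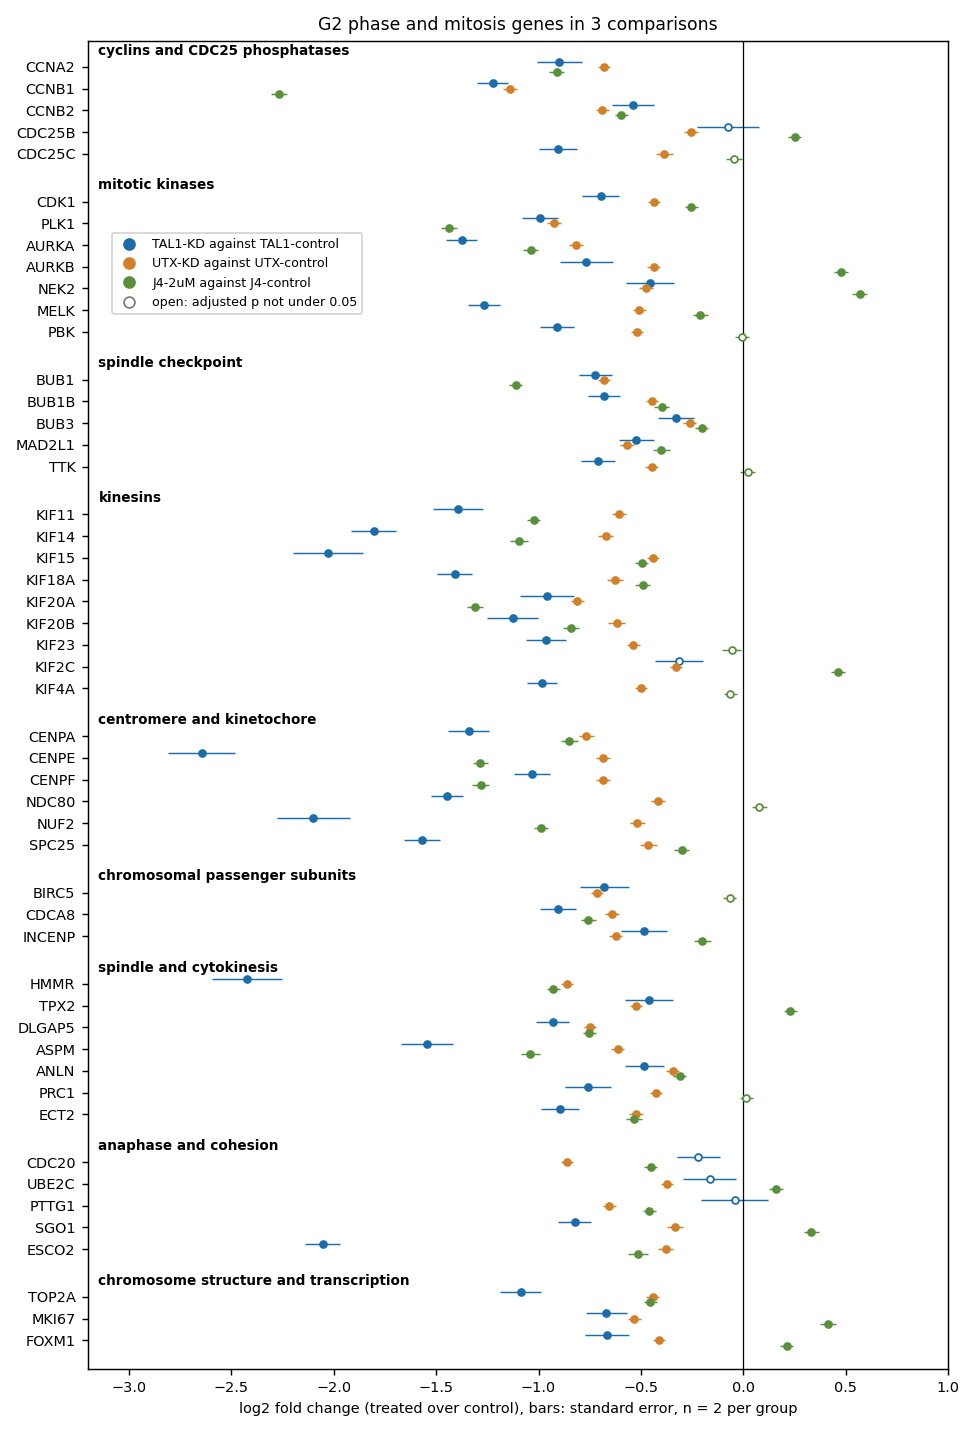
Log2 fold change of each of the 50 members (treated over control) with its standard error, grouped by role, with 2 libraries per group. Blue is the TAL1 comparison, orange the UTX comparison and green GSK-J4, and open points are members not called. The orange points lie between -1.14 and -0.26, the blue reach down to -2.65 and the green run from -2.27 to 0.57.

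Counts of calls by role group are to be read against all genes, and with few genes per group they only describe the list. Of all genes, 27.9% were lower in the TAL1 comparison and 25.3% in the UTX comparison. With GSK-J4, 36.9% were lower and 37.9% higher. Among the cyclins and CDC25 phosphatases, 4 of 5 were lower in the TAL1 comparison, 5 in the UTX comparison and 3 with GSK-J4. The B-type cyclin CCNB1 carried the lowest value of all members in the UTX and GSK-J4 comparisons. CCNB1, the main partner of CDK1 at mitotic entry, read 254 and 259 CPM in J4-control and 51.2 and 55.3 in J4-2uM, or -2.27 on the log2 scale (SE 0.04, adjusted p = 8.85e-14 in edgeR). It read 265 and 255 CPM in UTX-control and 121 and 115 in UTX-KD, a change of -1.14 (SE 0.03, adjusted p = 4.05e-14). In TAL1-control it stood at 116 and 122 CPM, and in TAL1-KD at 50.4 and 51.5, a change of -1.22 (SE 0.08, adjusted p = 1.40e-04). CCNA2, the cyclin of S phase and G2, changed by -0.90, -0.68 and -0.91 in the TAL1, UTX and GSK-J4 comparisons, and CCNB2, the second B-type cyclin, by -0.54, -0.69 and -0.59.

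The phosphatases that switch on CDK1 did not move alike. CDC25B, which acts at centrosomes at the onset of mitosis, read 271 and 268 CPM in J4-control and 317 and 324 in J4-2uM, a change of 0.25 (SE 0.03, adjusted p = 8.49e-06) that fell to 0.07 and was not called with the length and GC trend of transcripts removed, and was also not called in 1 fit over 12 libraries (0.25). Its UTX libraries went from 216 and 224 CPM to 189 and 179 (-0.26, SE 0.03, adjusted p = 4.56e-06). The TAL1 libraries overlapped, with 257 and 276 CPM in control and 211 and 296 in TAL1-KD (-0.07, SE 0.15, adjusted p = 0.702). Without the first TAL1-KD library CDC25B was called higher there (0.16), and without the second it was called lower (-0.33). CDC25C, the phosphatase that acts on CDK1 with cyclin B, was lower in the TAL1 comparison (-0.91) and the UTX comparison (-0.38). With GSK-J4 its change was -0.05, with a 95% interval from -0.13 to 0.04.

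All 7 mitotic kinases were lower in both shRNA comparisons, while GSK-J4 lowered 4, raised AURKB and NEK2, and left PBK uncalled. Of all genes, 36.9% were lower and 37.9% higher with GSK-J4, so its counts among 7 kinases are no result about the group. CDK1, the catalytic subunit, read 200 and 218 CPM in TAL1-control and 122 and 135 in TAL1-KD (-0.70, SE 0.09, adjusted p = 9.24e-04). Its changes in the UTX and GSK-J4 comparisons were -0.44 and -0.25, both called. PLK1, which promotes mitotic entry and spindle assembly, was among the most lowered kinases with GSK-J4, at 240 and 238 CPM in control and 84.6 and 91.6 in treated libraries (-1.44, SE 0.04, adjusted p = 3.61e-12). PLK1 went in the UTX comparison from 236 and 230 to 128 and 118 CPM (-0.92, SE 0.04, adjusted p = 2.16e-12), and in the TAL1 comparison from 162 and 166 to 77.4 and 87.5 CPM (-0.99, SE 0.09, adjusted p = 3.22e-04). Control and treated libraries were apart in each of these.

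The 2 Aurora kinases went separate ways with GSK-J4. AURKA, the kinase of centrosomes and spindle poles, read 116 and 121 CPM in J4-control and 59.0 and 56.6 in J4-2uM (-1.04, SE 0.04, adjusted p = 3.82e-11). AURKB, the kinase of the chromosomal passenger complex, read 142 and 144 CPM in J4-control and 194 and 204 in J4-2uM (0.48, SE 0.03, adjusted p = 3.41e-08). Both were lower in the TAL1 comparison (AURKA -1.38, AURKB -0.77) and in the UTX comparison (-0.82 and -0.44). NEK2, a kinase that separates centrosomes, had the highest GSK-J4 value of the list, at 63.9 and 67.2 CPM in control and 97.7 and 97.0 in treated libraries (0.57, SE 0.04, adjusted p = 8.59e-09). NEK2 went the other way in the UTX comparison, from 62.7 and 63.6 to 46.1 and 44.6 CPM (-0.48, SE 0.04, adjusted p = 8.10e-09). MELK, a kinase expressed in dividing cells, changed by -1.27, -0.51 and -0.21 in the TAL1, UTX and GSK-J4 comparisons. PBK was lower in the TAL1 comparison (-0.91) and the UTX comparison (-0.52), and its GSK-J4 libraries overlapped (88.5 and 87.5 CPM against 86.4 and 88.9).

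All 5 spindle checkpoint genes were lower in both shRNA comparisons, with changes from -0.72 to -0.33 in the TAL1 comparison and from -0.68 to -0.26 in the UTX comparison. BUB1, a kinase that recruits checkpoint proteins to kinetochores, stood out with GSK-J4, with 316 and 313 CPM in control and 147 and 144 in treated libraries (-1.11, SE 0.03, adjusted p = 5.83e-12). It went from 324 and 325 to 205 and 200 CPM in the UTX comparison (-0.68, SE 0.03, adjusted p = 7.57e-12), and from 255 and 268 to 161 and 155 CPM in the TAL1 comparison (-0.72, SE 0.08, adjusted p = 5.85e-04). BUB1B and MAD2L1, which form the inhibitor of the anaphase-promoting complex, changed with GSK-J4 by the same -0.40, and BUB3, the adaptor of BUB1 and BUB1B, by -0.20. TTK, the kinase that starts checkpoint signalling, had overlapping GSK-J4 libraries at 132 and 136 CPM in control and 132 and 140 in treated, a change of 0.02 with a 95% interval from -0.06 to 0.10. BUB3 in the TAL1 comparison (-0.33, adjusted p = 0.0165) was no longer called when either TAL1-control library was left out (-0.39 and -0.27).

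Kinesins, the microtubule motors of the list, were lower in 8 of 9 cases in the TAL1 comparison (27.9% of all genes). They were lower in 9 of 9 in the UTX comparison (25.3% of all genes) and in 6 of 9 with GSK-J4 (36.9%). In the TAL1 comparison the lowest was KIF15, a motor that helps keep spindle poles apart, at 299 and 302 CPM in control and 88.1 and 59.4 in TAL1-KD (-2.03, SE 0.17, adjusted p = 2.81e-04). KIF14, a motor of cytokinesis, followed with 126 and 126 CPM against 40.0 and 32.1 (-1.81, SE 0.11, adjusted p = 1.40e-04). KIF11, the motor that separates spindle poles, changed by -1.39, -0.61 and -1.02 in the TAL1, UTX and GSK-J4 comparisons. KIF20A, a motor of the central spindle, was the lowest kinesin with GSK-J4, at 120 and 118 CPM in control and 46.4 and 49.5 in treated libraries (-1.31, SE 0.04, adjusted p = 6.13e-12), and the lowest in the UTX comparison, at 118 and 117 against 68.6 and 65.3 CPM (-0.81, SE 0.03, adjusted p = 4.00e-12).

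KIF2C was the only kinesin called higher with GSK-J4. This motor, which takes microtubules apart at centromeres, read 210 and 211 CPM in J4-control and 281 and 300 in J4-2uM (0.46, SE 0.04, adjusted p = 7.46e-08). The UTX libraries went from 200 and 202 to 162 and 157 CPM (-0.33, SE 0.03, adjusted p = 8.26e-08). For TAL1 it read 264 and 288 CPM in control and 198 and 246 in TAL1-KD (-0.31, SE 0.12, adjusted p = 0.0568), just outside the threshold, and it was called lower without either TAL1-KD library (-0.15 and -0.48). KIF23 and KIF4A, partners of the central spindle, were lower in both shRNA comparisons (TAL1 -0.96 and -0.98, UTX -0.54 and -0.50). With GSK-J4 both had changes of -0.06, with 95% intervals from -0.15 to 0.04 and from -0.13 to 0.01, though KIF23 was called lower without the second J4-2uM library (-0.13) and KIF4A without the first (-0.09). KIF18A, which limits chromosome movement at the metaphase plate, and KIF20B, a cytokinesis motor, were lower in all 3 comparisons, by -1.41, -0.63 and -0.49 and by -1.13, -0.62 and -0.84.

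Centromere and kinetochore members had the lowest median of the 9 role groups in the TAL1 comparison (-1.51) and with GSK-J4 (-0.92), and all 6 were at -1 or lower in the TAL1 comparison. CENPE, a kinesin-like motor of kinetochores, had the lowest TAL1 value of the list, with 183 and 191 CPM in control and 35.4 and 24.4 in TAL1-KD, or 16.0% of the control mean (-2.65, SE 0.16, adjusted p = 1.40e-04). NUF2, a subunit of the NDC80 complex that binds microtubules, went from 130 and 139 CPM to 37.8 and 24.9 (-2.10, SE 0.18, adjusted p = 2.86e-04). The other 2 listed subunits of that complex, NDC80 and SPC25, changed by -1.45 and -1.57. With GSK-J4 the same complex did not move as one. NUF2 read 113 and 111 CPM in control and 55.5 and 57.1 in treated libraries (-0.99, SE 0.03, adjusted p = 2.87e-11). SPC25 changed by -0.30 (SE 0.04), and NDC80, at 88.8 and 90.9 CPM against 96.6 and 93.4, by 0.08 (SE 0.03, adjusted p = 0.0533), not called with all libraries and called higher without the second J4-2uM library (0.10).

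CENPE and CENPF, a large kinetochore protein of G2 cells, were the lowest centromere members with GSK-J4. CENPE went from 208 and 215 to 84.4 and 89.5 CPM (-1.28, SE 0.04, adjusted p = 6.43e-12), and CENPF from 487 and 519 to 200 and 214 CPM (-1.28, SE 0.04, adjusted p = 1.37e-11). CENPA, the histone H3 variant of centromeric nucleosomes, was the lowest centromere member in the UTX comparison, at 63.4 and 62.8 CPM against 37.3 and 37.0 (-0.77, SE 0.04, adjusted p = 2.12e-11). Its changes in the TAL1 and GSK-J4 comparisons were -1.34 and -0.85.

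**Figure D2:**
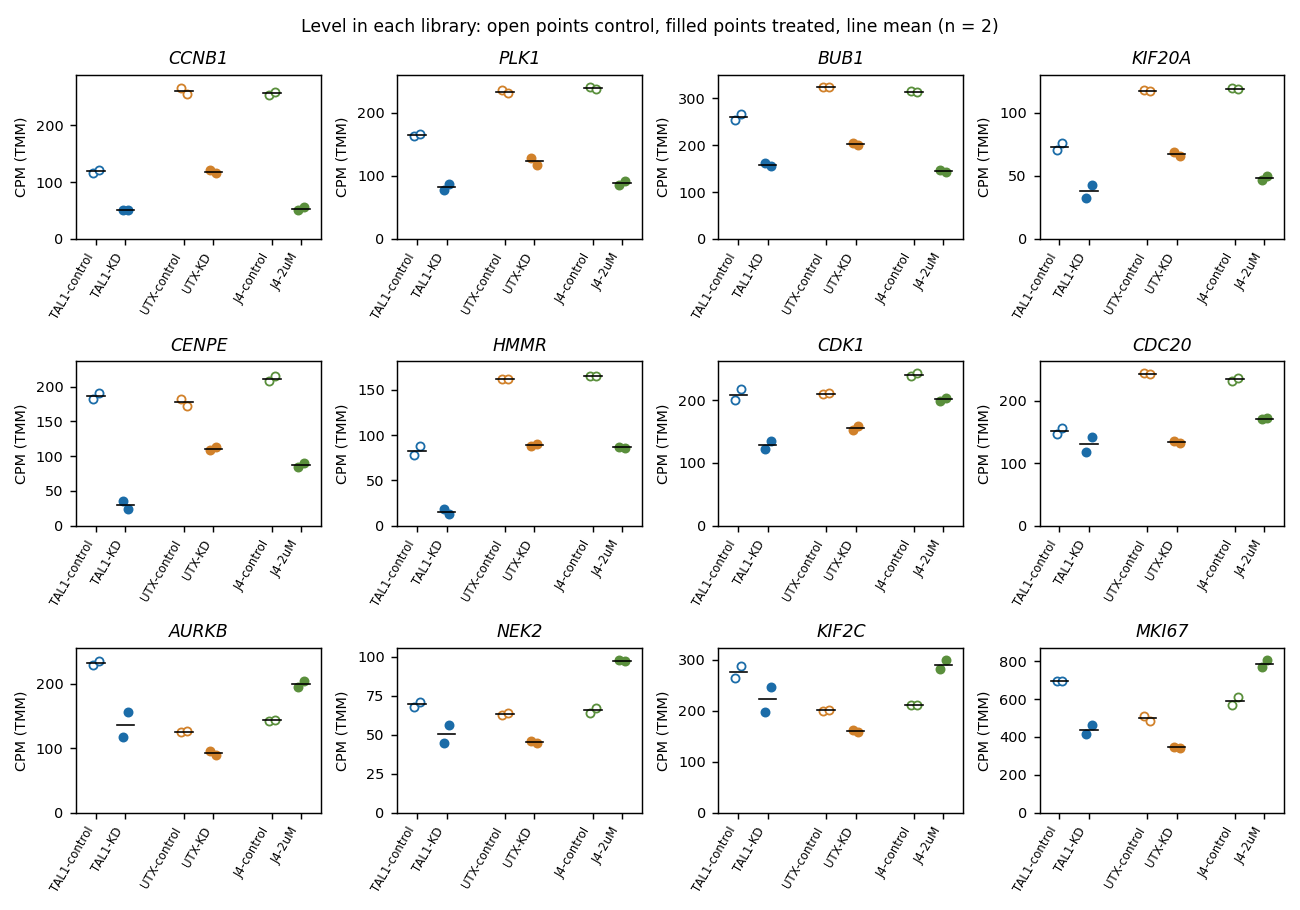
CPM (TMM scaled) in each of the 12 libraries for 12 members, with open points for controls, filled points for treated libraries and a line at the group mean (n = 2). CCNB1, PLK1, BUB1, KIF20A and CENPE are lower in all 3 treated groups, while AURKB, NEK2, KIF2C and MKI67 are above their controls in J4-2uM only.

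The 3 subunits that bind AURKB in the chromosomal passenger complex did not follow it with GSK-J4. CDCA8 (borealin) was lower, from 162 and 163 to 93.6 and 99.0 CPM (-0.76, SE 0.04, adjusted p = 4.72e-10), and INCENP, the scaffold, was lower by a smaller amount (-0.20, SE 0.04, adjusted p = 5.72e-04). BIRC5 (survivin) read 199 and 199 CPM in control and 192 and 189 in treated libraries (-0.07, SE 0.03, adjusted p = 0.0741) and was called lower only without the first J4-2uM library (-0.10) or with the length and GC trend removed (-0.12). The 3 lay close together in the UTX comparison, at -0.71 for BIRC5, -0.64 for CDCA8 and -0.62 for INCENP. They changed in the TAL1 comparison by -0.68, -0.91 and -0.48.

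All 7 spindle and cytokinesis members were lower in both shRNA comparisons, and 5 of 7 with GSK-J4, where 36.9% of all genes were. HMMR, a spindle-associated protein, went from 78.3 and 87.6 CPM in TAL1-control to 18.4 and 12.5 in TAL1-KD (-2.43, SE 0.17, adjusted p = 1.82e-04). It read 162 and 162 CPM in UTX-control and 87.9 and 90.4 in UTX-KD (-0.86, SE 0.03, adjusted p = 6.13e-13), and 165 and 165 in J4-control and 87.4 and 86.3 in J4-2uM (-0.93, SE 0.03, adjusted p = 2.71e-11). ASPM, a protein of spindle poles, changed by -1.54, -0.61 and -1.04 in the TAL1, UTX and GSK-J4 comparisons, and DLGAP5, which stabilises spindle microtubules, by -0.93, -0.75 and -0.75. TPX2, which activates AURKA on the spindle, read 440 and 443 CPM in J4-control and 521 and 515 in J4-2uM (0.23, SE 0.03, adjusted p = 1.57e-05), opposite in direction to AURKA. TPX2 went in the UTX comparison from 441 and 431 to 306 and 301 CPM (-0.52, SE 0.03, adjusted p = 2.23e-10). Its TAL1 change (-0.46, adjusted p = 0.0135) was not called when either TAL1-control library was left out (-0.49 and -0.43).

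The other cytokinesis members were lower in both shRNA comparisons. PRC1, which bundles microtubules of the central spindle, changed by -0.76 and -0.43, and with GSK-J4 its libraries overlapped (253 and 252 CPM against 252 and 259). ECT2, the activator of RhoA at the division plane, changed by -0.90, -0.52 and -0.53 in the TAL1, UTX and GSK-J4 comparisons. ANLN (anillin), a scaffold of the contractile ring, changed by -0.48, -0.34 and -0.31.

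Anaphase and cohesion members were lower in 2 of 5 cases in the TAL1 comparison, where 27.9% of all genes were. They were lower in 5 of 5 in the UTX comparison (25.3% of all genes) and in 3 of 5 with GSK-J4 (36.9%). With 5 genes, the TAL1 and GSK-J4 counts are no result about the group. CDC20, the activator of the anaphase-promoting complex, was lower in the UTX comparison, from 244 and 242 to 135 and 133 CPM (-0.86, SE 0.03, adjusted p = 4.05e-13). For TAL1 it read 147 and 157 CPM in control and 119 and 143 in TAL1-KD (-0.22, SE 0.10, adjusted p = 0.112), not called with all libraries and called lower without the second TAL1-KD library (-0.35). PTTG1 (securin), the inhibitor of separase, read 133 and 133 CPM in UTX-control and 84.7 and 84.3 in UTX-KD (-0.65, SE 0.03, adjusted p = 1.73e-11). The PTTG1 libraries overlapped in the TAL1 comparison, with 83.1 and 96.8 CPM in control and 71.9 and 103 in TAL1-KD (-0.04, SE 0.16, adjusted p = 0.847), and it was called higher without the first TAL1-KD library (0.21) and lower without the second (-0.32). ESCO2, the acetyltransferase that establishes cohesion in S phase, showed the reverse order, from 55.4 and 54.3 to 13.5 and 13.0 CPM in the TAL1 comparison (-2.05, SE 0.08, adjusted p = 9.77e-05) and from 55.6 and 55.2 to 41.7 and 43.5 in the UTX comparison (-0.38, SE 0.04, adjusted p = 2.07e-07).

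SGO1 (shugoshin), which protects cohesion at centromeres, was higher with GSK-J4, at 52.9 and 53.0 CPM in control and 67.9 and 65.4 in treated libraries (0.33, SE 0.04, adjusted p = 2.00e-06). It was lower in the TAL1 comparison (-0.82) and the UTX comparison (-0.33). UBE2C, a ubiquitin-conjugating enzyme of the anaphase-promoting complex, had the smallest called rise with GSK-J4, from 154 and 155 to 170 and 175 CPM (0.16, SE 0.03, adjusted p = 6.60e-04), and this call was lost in 1 fit over 12 libraries (0.15). In the UTX comparison it was lower (-0.37), and in the TAL1 comparison the libraries overlapped (135 and 143 CPM against 107 and 141) and the change was called only without the second TAL1-KD library (-0.37). ESCO2, CDC20 and PTTG1 were lower with GSK-J4 by -0.51, -0.45 and -0.46.

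The last group holds TOP2A, MKI67 and FOXM1. TOP2A, the topoisomerase that untangles chromosomes, was lower in all 3 comparisons, with 1150 and 1185 CPM in TAL1-control and 537 and 562 in TAL1-KD (-1.09, SE 0.10, adjusted p = 3.51e-04) and changes of -0.44 and -0.45 in the UTX and GSK-J4 comparisons. MKI67, which codes for the proliferation antigen Ki-67 on mitotic chromosomes, read 566 and 613 CPM in J4-control and 768 and 804 in J4-2uM (0.42, SE 0.04, adjusted p = 6.54e-07). It was lower in the TAL1 comparison, from 698 and 697 to 415 and 463 CPM (-0.67, SE 0.10, adjusted p = 1.50e-03), and in the UTX comparison (-0.53). FOXM1, a transcription factor of G2 genes, was likewise higher with GSK-J4, from 226 and 224 to 262 and 259 CPM (0.21, SE 0.03, adjusted p = 3.71e-05). FOXM1 went in the UTX comparison from 240 and 239 to 183 and 177 CPM (-0.41, SE 0.03, adjusted p = 5.06e-09), and in the TAL1 comparison it changed by -0.67.

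Whether members responded differently between comparisons was tested with the difference of the 2 log2 fold changes, in 1 edgeR fit over the 8 libraries concerned. No libraries are shared between the comparisons, but hairpin line, medium and agent differ between them and cannot be told apart. Between the TAL1 and UTX comparisons, 25 members had a lower value in the TAL1 comparison, where 25.1% of all genes did, and 2 a higher value, CDC20 and PTTG1, where 25.0% did. The 6 centromere and kinetochore members and 7 of the 9 kinesins were among the 25. The difference was -1.93 for CENPE (SE 0.18, adjusted p = 7.72e-05), -1.64 for ESCO2 (SE 0.08, adjusted p = 4.83e-06) and 0.67 for CDC20 (SE 0.12, adjusted p = 1.28e-03). The median difference over the members was -0.26, and that over all genes -0.03. Without the first TAL1-KD library the number higher went from 2 to 11. With the length and GC trend of the transcripts removed, 17 members were lower and 3 higher, the members' median difference was -0.05 and that of all genes 0.09, and the share of called genes that were higher moved over all genes from 49.9% to 61.5%.

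Between the TAL1 and GSK-J4 comparisons, 32 members were lower in the TAL1 comparison, where 27.6% of all genes were, and 4 higher, where 26.3% were. The 4 are BUB1, CCNB1, CENPF and PLK1, with differences of 0.42, 1.07, 0.28 and 0.48. The lowest differences were -1.51 for ESCO2 (SE 0.09, adjusted p = 8.55e-07), -1.50 for KIF15 (SE 0.19, adjusted p = 6.91e-05) and -1.50 for NDC80 (SE 0.08, adjusted p = 3.93e-07). Without the first TAL1-KD library 9 members were higher.

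Between the UTX and GSK-J4 comparisons, 25 members were lower in the UTX comparison, where 28.3% of all genes were, and 13 higher, where 30.2% were. All 7 mitotic kinases differed, 5 being lower in the UTX comparison and 2, PLK1 and AURKA, lower with GSK-J4. NEK2 had the lowest difference, -1.05 (SE 0.05, adjusted p = 4.66e-16), followed by MKI67 with -0.96 and AURKB with -0.92. At the other end, the differences were 1.12 for CCNB1 (SE 0.05, adjusted p = 9.42e-17), 0.59 for CENPE and 0.59 for CENPF. Across the 50 members the log2 fold changes of these 2 comparisons had a Pearson correlation of 0.77 (0.56 over 16619 genes), against 0.25 for TAL1 with UTX (0.16 over 16179 genes) and 0.49 for TAL1 with GSK-J4 (0.29 over 16573 genes). These are descriptions across genes of the same libraries, which are not independent points. The members lowest in the UTX comparison (CCNB1, PLK1) were thus also the lowest with GSK-J4, and those higher with GSK-J4 had UTX changes between -0.53 (MKI67) and -0.26 (CDC25B).

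**Figure D3:**
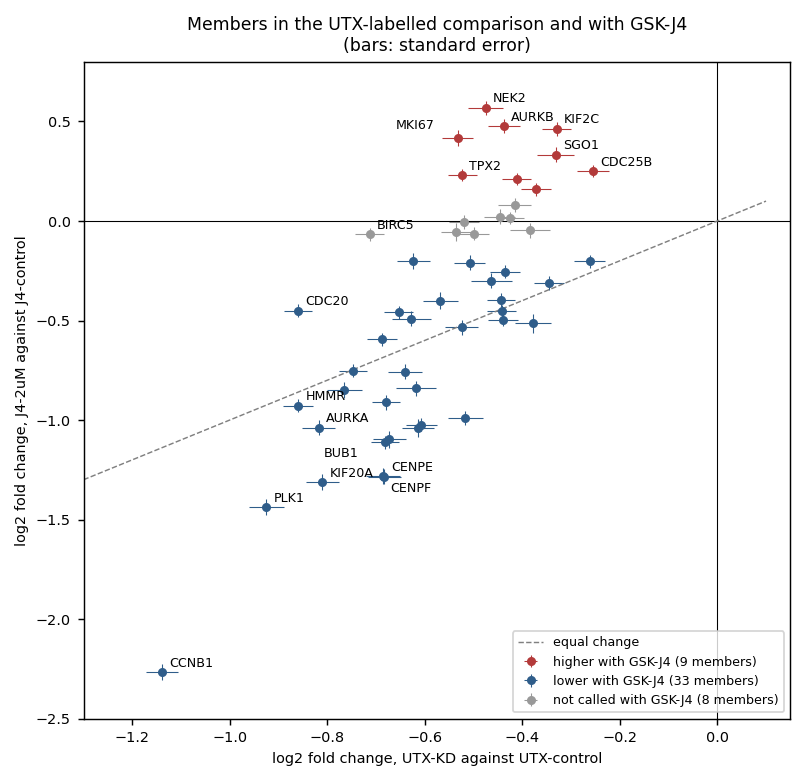
Log2 fold change of each member in the UTX comparison (x axis) against GSK-J4 (y axis), with standard errors as bars and a dashed line where the 2 changes are equal. All 50 points lie left of 0, and the 9 members higher with GSK-J4 (red) lie between -0.53 and -0.26 on the x axis, while CCNB1 lies lowest at -1.14 and -2.27.

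Other genes of the pathway were taken from lists by role, and their counts are read against all genes, of which 27.9% were lower and 26.3% higher in the TAL1 comparison, 25.3% and 25.2% in the UTX comparison and 36.9% and 37.9% with GSK-J4. Of 30 further kinetochore subunits, 25 were lower in the TAL1 comparison and 26 in the UTX comparison, and with GSK-J4 15 were lower and 13 higher. SPDL1, which brings dynein to kinetochores, was lower in all 3 (-1.74, -0.72 and -1.33), while CENPU and SKA1 were lower in both shRNA comparisons and higher with GSK-J4 (0.88 and 0.82). Of 16 further spindle and cytokinesis genes, 13 were lower in the TAL1 comparison, 15 in the UTX comparison and 8 with GSK-J4, where 4 were higher. KNSTRN, a kinetochore and spindle adaptor, was lower in all 3 (-1.59, -0.85 and -1.57). All 8 condensin subunits, which compact mitotic chromosomes, were lower in both shRNA comparisons, NCAPG by -2.13 in the TAL1 comparison and -0.63 in the UTX comparison, and with GSK-J4 6 were lower and 1 higher.

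Of 12 cohesin and separase genes, 9 were lower in the TAL1 comparison, 10 in the UTX comparison and 8 with GSK-J4, where CDCA5 (sororin) was higher (0.66). Among the 17 anaphase-promoting complex genes, 5 were lower and 4 higher in the TAL1 comparison, near the 27.9% and 26.3% of all genes, so these counts are no result about the list. In the UTX comparison 7 were lower and 2 higher (25.3% and 25.2% of all genes), and with GSK-J4 9 and 5 (36.9% and 37.9% of all genes), with CDC27 and ANAPC15, both core subunits, lower by -1.14 and -1.15. Of the 15 regulators of G2 entry, 7 were lower and 5 higher in the TAL1 comparison, 11 and 1 in the UTX comparison, and 5 and 7 with GSK-J4, to be read against the same shares of all genes. CDKN1A, the inhibitor of cyclin-dependent kinases known as p21, was higher in the TAL1 comparison, from 10.4 and 11.5 to 37.4 and 49.3 CPM (1.99, SE 0.14, adjusted p = 1.86e-04). With GSK-J4 it went from 7.52 and 7.23 to 29.6 and 27.8 CPM (1.96, SE 0.06, adjusted p = 7.93e-12), and in the UTX comparison from 7.10 and 6.90 to 7.89 and 8.24 CPM (0.20, SE 0.07, adjusted p = 0.0215). PKMYT1, which inhibits CDK1, and CDC25A, which activates cyclin-dependent kinases, were both higher with GSK-J4 (1.32 and 0.77). Among 12 genes of the DREAM and MuvB complexes, which repress or activate the CHR genes, 7, 7 and 8 were lower and 2, 2 and 3 higher in the TAL1, UTX and GSK-J4 comparisons, with MYBL2 (B-MYB) at -0.75, -0.46 and 0.26.

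Of 36 DNA replication genes, which act before G2, 30 were lower in the TAL1 comparison and 34 in the UTX comparison, with medians of -0.53 and -0.31. With GSK-J4, 16 were higher and 12 lower, near the 37.9% and 36.9% of all genes, with a median of 0.03. The 50 mitotic genes had 9 higher and 33 lower and a median of -0.43. CDT1, which licenses origins, was higher with GSK-J4 (1.06), and POLA1, the catalytic subunit of DNA polymerase alpha, was lower in the TAL1 comparison (-1.72). This difference between lists is a description, without a test.

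Per kilobase of exon and with the 12 libraries scaled together, TOP2A was the most abundant member by the mean of the control libraries. It stood at 194 ± 4.41 CPM per kilobase in TAL1-control, 141 ± 2.37 in UTX-control and 144 ± 1.61 in J4-control (mean ± SD, n = 2). ESCO2 was the least abundant, at 7.38 ± 0.09, 6.93 ± 0.04 and 6.19 ± 0.08 in the same groups. TOP2A lay below TPX2 and UBE2C in TAL1-KD (93.0 against 107 and 105) and in J4-2uM (105 against 132 and 123). The control groups differed from each other for some members. J4-control received DMSO and grew in ordinary serum without selection, so its line, medium and vehicle cannot be told apart. In the members given here, however, TAL1-control stood apart, and UTX-control, with the same serum and selection as TAL1-control, lay near J4-control. The cause was not tested. CCNB1 stood at 49.8 ± 1.63 CPM per kilobase in TAL1-control, 101 ± 2.87 in UTX-control and 92.5 ± 1.38 in J4-control, and HMMR at 22.6 ± 1.84, 41.0 ± 0.04 and 38.7 ± 0.07. AURKB had the opposite order, at 111 ± 2.60, 55.7 ± 0.45 and 59.0 ± 0.38. These levels come from tables counted separately and were not tested.

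The size of the TAL1 change went with the base composition of the transcripts. Over the 50 members, the log2 fold change in the TAL1 comparison had a Pearson correlation of 0.56 with the GC content of the longest transcript, against 0.17 over 16300 genes. It was -0.04 in the UTX comparison and 0.29 with GSK-J4. CENPE, HMMR, ESCO2 and NUF2, among the most lowered, had GC contents of 35.3%, 36.7%, 38.5% and 38.8%, and CDC25B and CDC20, not called, had 59.3% and 57.9%. Other members did not follow this order: PLK1 (57.1%) and INCENP (59.6%) were called lower at -0.99 and -0.48, and PTTG1, not called, had 49.2%. The 2 TAL1-KD libraries differed from each other in the same respect, since the log2 ratio of the second over the first had a correlation of 0.69 with GC content over the members (0.21 over 16267 genes). In UTX-KD that correlation was -0.77, and in J4-2uM -0.04. The members had a median GC content of 42.0%, and all genes tested 48.8%. With a trend on length and GC content removed, chosen after seeing the data, 41 members were lower and 0 higher in the TAL1 comparison, with a median of -0.69, while the median of all genes moved from -0.02 to 0.08. ANLN, BUB3, MAD2L1, NEK2 and TPX2 were then no longer called, CDC20 was called lower, and the part of base composition in the remaining change was not tested. In the UTX comparison 50 members were lower under that setting, and with GSK-J4 34 were lower and 9 higher.

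**Figure D4:**
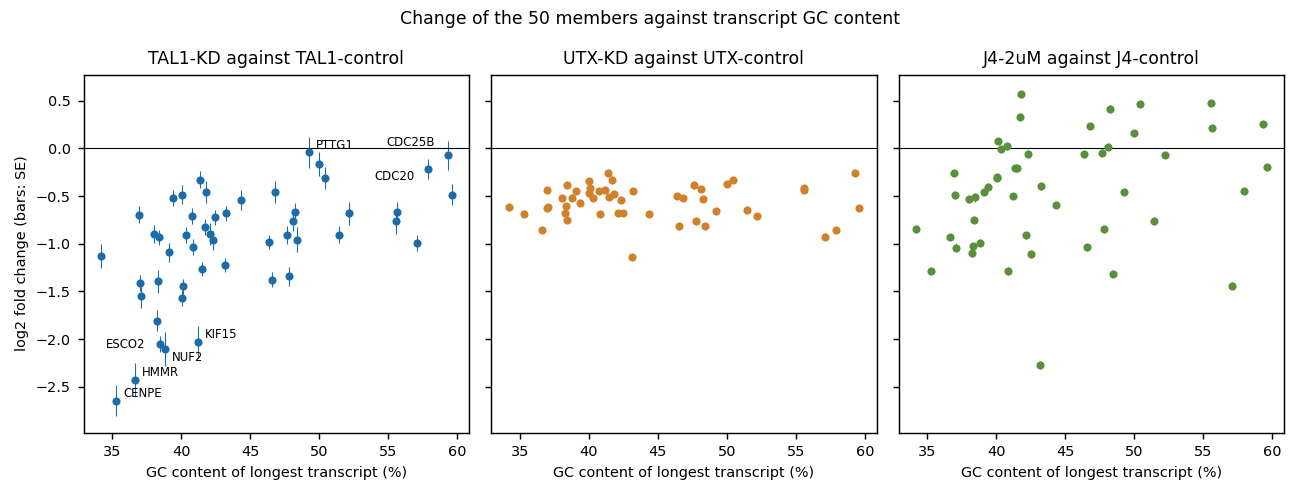
Log2 fold change of the 50 members in each comparison against the GC content of the longest transcript in percent, with standard errors as bars. In the TAL1 panel CENPE (35.3% GC) lies at -2.65 and CDC25B (59.3% GC) at -0.07, while in the UTX panel the points stay between -1.14 and -0.26 over the same range of GC content.

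The authors' deposited tables give the same calls for all 50 members in each comparison. In the authors' deposited table for TAL1 the median log2 fold change of the members was -0.88, in that for UTX -0.54 and in that for GSK-J4 -0.44. For 14 members the annotation lists a pseudogene or other copy by name, and how reads with several positions were counted is not given in the sources used here. The highest copies were CDC20P1, with 64 to 196 reads per library, and UBE2CP5, with 75 to 197.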

How the data were processed

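RNA from 12 Jurkat libraries was grouped by title into 6 groups of 2. The build was hg19 and the tools were HTSeq 0.6.1p1, TopHat2 2.0.12 and an unversioned DESeq2, per the submitters' processing notes. Annotation, strand setting and treatment of reads with several positions are not given in the sources used here. The authors deposited raw read counts per Ensembl gene, 1 table per comparison. The log2 fold changes and p-values deposited by the authors come from DESeq2, per the file headers and the processing notes, and were used only for the comparison of calls.

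Everything else was computed from the deposited counts in R 4.3.3 with edgeR 4.0.16: filterByExpr, TMM scaling and the two-sided quasi-likelihood test per comparison on 4 libraries, with Benjamini-Hochberg adjustment over all genes tested and a threshold of 0.05. Standard errors are the log2 fold change over the root of F. Differences between comparisons are interaction terms over 8 libraries. Scripts were tested on simulated data. Symbols, exon lengths and GC content came from GENCODE 29, promoters from RefSeq (GRCh38.p14). hg19 coordinates of the genes were not used here.

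The members and all lists were chosen with earlier results of these data known. Members are shown by library where, within a role and comparison, they were among the 2 with the smallest adjusted p or largest change, or went against most members, and other members where a result turned on them. Of the other genes, the targets and up to 3 called genes per list were eligible. Alternatives were DESeq2 1.42.0, RLE size factors, no filter, a stricter filter (mean count of 50) and a threshold of 0.01. Others were 1 fit over 12 libraries, a replicate block and leaving out each library. Removal of a length and GC trend (natural splines from the R splines package) was added after seeing the data. Depth ran from 55524079 to 82534711 reads per library.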

Additional observations from a re-analysis of the deposited data

Results flagged for a closer look

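Members called in opposite directions in 2 comparisons, with the difference itself called, are listed here as the first comparison's log2 fold change minus the second's. Between the TAL1 and GSK-J4 comparisons, both called in edgeR, the difference was -1.21 for AURKB, -1.13 for SGO1, -1.05 for MKI67, -0.99 for NEK2, -0.85 for FOXM1 and -0.66 for TPX2. Each of these 6 was lower in TAL1-KD than in its control and higher in J4-2uM than in its control. The TAL1 calls of NEK2 and TPX2 were lost with the length and GC trend removed. That of TPX2 was also lost when either TAL1-control library was left out. Between the UTX and GSK-J4 comparisons the difference was -1.05 for NEK2, -0.96 for MKI67, -0.92 for AURKB, -0.80 for KIF2C, -0.76 for TPX2, -0.67 for SGO1, -0.63 for FOXM1, -0.54 for UBE2C and -0.52 for CDC25B. The rise with GSK-J4 of UBE2C and CDC25B was not called in 1 fit over 12 libraries (0.15 and 0.25), nor was the UTX change of CDC25B there (-0.23). With the length and GC trend removed, the GSK-J4 change of CDC25B was not called either (0.07). In each of these 15 contrasts the control and treated libraries of a comparison did not overlap. That adds no support, since the members were picked by their calls in these same libraries.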

How the results depend on the processing

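Within single comparisons, the members' counts of calls lay within 1.5 times of the reported ones under the alternatives run, with 1 exception. Members higher in the TAL1 comparison numbered 0 to 2 when a library was left out, and the 2, without TAL1-KD replicate 1, were CDC25B (0.16) and PTTG1 (0.21), both reversed in sign (-0.33 and -0.32 without replicate 2). With a library left out, the lone library of that group is assumed to vary like the others. The median log2 fold change then ran from -0.96 to -0.83 in the TAL1 comparison, from -0.54 to -0.52 in the UTX comparison and from -0.46 to -0.41 with GSK-J4. Removing the length and GC trend, chosen after seeing the data, gave medians of -0.69, -0.54 and -0.38. The UTX median was -0.52 without a filter, -0.52 with the stricter filter and -0.51 in 1 fit over 12 libraries. Under the length and GC setting the difference between comparisons turned to 0.0016 for TTK (TAL1 against UTX) and to 0.25 for KIF20B (TAL1 against GSK-J4). Members higher in TAL1 against GSK-J4 went from 4 to 7 under that setting, with the block and in 1 fit over 12 libraries. Over all genes DESeq2 called 2801 higher in the UTX comparison against 4240, and leaving out a TAL1-control library gave 2431 and 2657 higher against 4424. In 1 fit over 12 libraries CDC25B was not called in the UTX comparison, and CDC25B and UBE2C were not called with GSK-J4. The cause of these shifts was not tested.

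The replicate numbers do not establish pairs, with 2 pairs per comparison and correlations of same-numbered deviations of 0.16, -0.02 and -0.03. With the replicate block, 47 members were lower in the TAL1 comparison (CDC20 and KIF2C in addition), 50 in the UTX comparison and 33 lower and 9 higher with GSK-J4.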
